A study of Mus musculus with 2 samples.

Results

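The genes described here encode the proteins of the cytosolic ribosome in mouse embryonic stem cells. Members were chosen by symbol: Rpl or Rps followed by a number and at most a letter and a digit, Rplp0 to Rplp2, and Rpsa, without Rpl10l, Rpl39l and pseudogene names holding -ps. The rule took 81 of the 32285 genes in the table, 80 of which had at least 10 CPM (counts scaled to a library total of 1000000) in either library. That minimum was met by 7661 genes in all. The member below it was Rpl3l, with 36 UMIs (unique molecular identifiers, 1 per captured RNA molecule) in 1 library and 134 in the other.

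The cells were R1 mouse embryonic stem cells in N2B27, a serum-free medium, for 72 hours, with 1 droplet single-cell library per condition. LB cells received BMP4 and LIF, the cytokine that keeps these cells self-renewing, and grew on gelatin. LBPXRS cells received LIF and BMP4 together with PD0325901 (a MEK inhibitor), Xav939 (a tankyrase inhibitor that dampens WNT signalling), SB431542 (an inhibitor of the activin and NODAL receptors) and a compound labelled Resorcyclic lactone, and grew on fibronectin. Medium, substrate and library therefore cannot be told apart, and no difference between the libraries has a replicate check. No test was possible, values are called by size alone, and the 95% intervals given are exact and cover counting error only.

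A cytosolic ribosome joins a small subunit, which reads the mRNA, to a large subunit, which forms the peptide bond. Each subunit is built in the nucleolus from rRNA and from proteins that are needed in matched amounts, so the genes of these proteins are usually transcribed and translated together. Many of their mRNAs begin with a C and a run of pyrimidines, the terminal oligopyrimidine element, through which mTOR and the RNA-binding protein Larp1 set their translation. Pluripotent cells are known for high ribosome production.

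The bases around the start site are shown for 4 members that departed most from the rest and have an entry in the RefSeq promoter table, and for Rps6 and Rps18, small-subunit genes that moved with the others. Rpl29, the member that departed furthest, has no entry in that table. Each line gives 20 bases before and 20 after the RefSeq start in GRCm38.p6, 5′ to 3′ on the gene's strand. Capitals mark the longest run of a C followed by at least 4 pyrimidines that begins within 10 bases of the start.
Rpl38, chr11:114668560-114668599, plus strand: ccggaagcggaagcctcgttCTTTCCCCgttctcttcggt
Rpl27, chr11:101442225-101442264, plus strand: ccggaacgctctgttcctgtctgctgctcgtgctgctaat
Rpl26, chr11:68901546-68901585, plus strand: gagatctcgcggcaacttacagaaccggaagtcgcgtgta
Rpl13a, chr7:45128726-45128765, minus strand: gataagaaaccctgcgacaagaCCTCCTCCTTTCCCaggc
Rps6, chr4:86857348-86857387, minus strand: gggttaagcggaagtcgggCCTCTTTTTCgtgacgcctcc
Rps18, chr17:33955646-33955685, minus strand: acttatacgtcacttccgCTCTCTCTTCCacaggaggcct

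Among these windows Rpl38, Rpl13a, Rps6 and Rps18 hold the run, and the Rpl27 and Rpl26 windows do not. The Rpl27 window ends before the start of the gene in the GENCODE annotation (101442298), and the Rpl26 window ends just past it (68901583). Absence of the run from those windows therefore does not show that these genes lack it. Of the 81 members, 61 had an entry in the table. The run was found on the gene's strand in 37 of those 61 (60.7%), against 33.3% of the 27025 genes in the table. CGGAAG, the core that ETS factors such as Gabpa bind, was found on either strand of the 300-base promoter in 67.2% of members against 18.8% of all genes. AAGATGG, the core bound by Yy1, was found in 16.4% of members and 7.28% of genes, and TATAAA in 11.5% and 15.7%. CGGAAG and AAGATGG can share the letters AAG. A match is a string of letters in an annotated window, and annotated starts can lie some bases away from those used in these cells.

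LB gave 1783 cells after filtering with 45490517 UMIs, and LBPXRS gave 2705 cells with 51832444 UMIs, at medians of 25418 and 19058 UMIs per cell. The libraries shared 10 barcodes, 8 of them among the cells kept. All 13 naive pluripotency markers listed were found in both libraries, at a summed 1213 CPM in LB and 2061 CPM in LBPXRS. Mesoderm markers summed to 291 CPM in LB and 5.50 CPM in LBPXRS, with 3 of 14 at 0 in LBPXRS, and trophoblast markers to 473 and 148 CPM, with 1 of 13 at 0 in LB. The 2-cell embryo markers, 11 in the table, were at 0 in both. The LBPXRS library also stood apart by chromosome. Y-linked Eif2s3y had 1695 UMIs in LB and 0 in LBPXRS, Ddx3y had 860 and 0, and genes of chromosomes 8 and 11 were lower as a group (medians given with the members of those chromosomes).

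Ribosomal protein mRNAs were a large part of the captured molecules in each library, and a slightly larger one in LBPXRS. They took 34.8% of UMIs in LB and 37.7% in LBPXRS, with counting intervals narrower than the last digit printed. The difference was 2.90 percentage points over all cells, and it turned to -0.14 points when only the naive pluripotent-like cells of LB were used. A limit set after the clusters were seen kept 61 LB cells, with a share of 24.6%, out of that class. The difference with them included was not computed, so the sign of -0.14 may rest on that limit. Small-subunit genes took 13.9% of all UMIs in LB and 16.2% in LBPXRS, and large-subunit genes 20.9% and 21.5%. The small subunit thus held 39.9% of the ribosomal protein UMIs in LB and 43.1% in LBPXRS.

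Single cells showed the same difference with a wide overlap. The share per cell had a lowest value of 5.29%, a median of 34.96% and a highest value of 51.0% in LB, and 9.88%, 37.6% and 53.6% in LBPXRS. The interquartile ranges were 31.3% to 38.1% and 34.6% to 40.6%, and 513 of 1783 LB cells (28.8%) lay above the LBPXRS median. Depth changed the share little within a library: with the cells split by depth into 4 equal bins, from shallowest to deepest, the medians were 33.9%, 35.6%, 35.2% and 34.98% in LB and 37.2%, 38.0%, 37.5% and 37.5% in LBPXRS. The shares of the small and large subunits followed each other over cells, with Pearson's r of 0.97 in LB (1783 cells) and 0.93 in LBPXRS (2705 cells). These cells share a library and each pair of shares has 1 total, so the coefficients are a description. Mitochondrial UMIs were 2.72% of a median LB cell and 2.54% of a median LBPXRS cell, and their part in the difference was not tested.

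**Figure D1:**
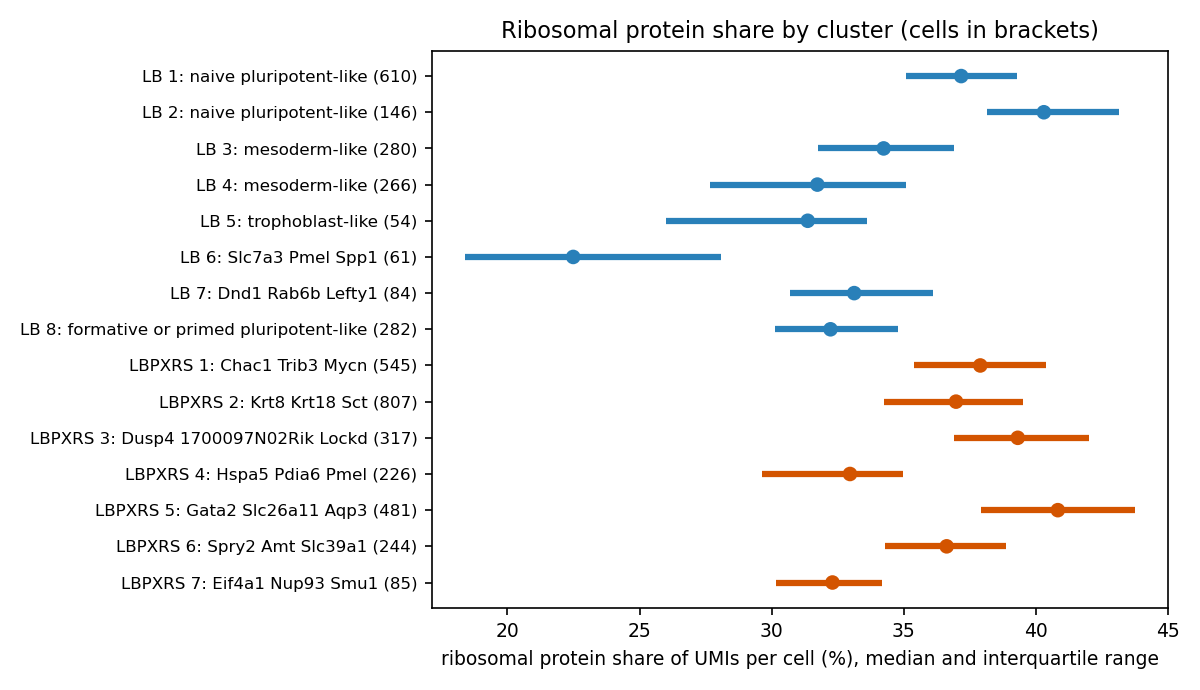
Ribosomal protein share of UMIs per cell (percent, x axis) in each cluster of LB (blue) and LBPXRS (orange); points are medians over cells, bars the interquartile range, and cell numbers stand in brackets. The naive pluripotent-like LB clusters lie among the LBPXRS clusters, and LB cluster 6 lies lowest.

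Within LB the share followed cell state, in clusters that were built without the members. Naive pluripotent-like cells (756 cells in 2 clusters) had a share of 37.8%, close to the 37.7% of the whole LBPXRS library. Mesoderm-like cells (546 cells in 2 clusters) had 32.7%, formative or primed pluripotent-like cells (282 cells) 32.7%, and trophoblast-like cells (54 cells) 29.5%. The highest LB cluster was naive pluripotent-like cluster 2, at 40.7% over 146 cells. The lowest was an unnamed cluster of 61 cells led by Slc7a3, Pmel and Spp1, at 24.6%, whose median mitochondrial share was 6.74% and whose median depth was 11630 UMIs. Without that cluster the difference between the libraries was 2.73 points.

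The LBPXRS clusters, none of which could be named from the markers, ranged from 33.1% to 40.7%. The lowest held 226 cells and was led by Hspa5 and Pdia6, chaperones of the endoplasmic reticulum, and Pmel. The highest held 481 cells and was led by Gata2, Slc26a11 and Aqp3. A cluster of 317 cells led by Dusp4, 1700097N02Rik and Lockd, with the mitotic genes Nusap1, Ube2c and Cenpf among its leading genes, had 39.5%. A cluster of 85 cells with a median of 3467 UMIs and 0.046% mitochondrial UMIs had 33.7%. Clusters of 1 library have no replicate, and no class was found that lacks these genes, so a background from free RNA could not be measured.

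Seen gene by gene, the members moved together over a narrow range. The median log2 ratio of LBPXRS over LB, each at CPM + 1, was 0.13 over the 80 members and -0.17 over all 7661 genes. Of the 80 members, 55 were above 0, where 39.6% of all genes were (40.9% of the 1478 genes with at least 100 CPM, the level of every one of these members). TMM scaling, which sets the all-gene median to -0.01, adds 0.15 to every log2 ratio and puts 62 of 80 members above 0; the 7 that cross are Rpl24, Rpl27a, Rpl34, Rpl36a, Rpl37, Rplp0 and Rps9. Against naive pluripotent-like LB cells alone 43 of 80 were, with a members' median of 0.01 and an all-gene median of 0.01. Within LB, the naive pluripotent-like cells exceeded the other LB cells by a median log2 difference of 0.24 over the members, with a range of -0.16 to 0.48. The median over the 7581 other genes with at least 10 CPM was -0.24.

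**Figure D2:**
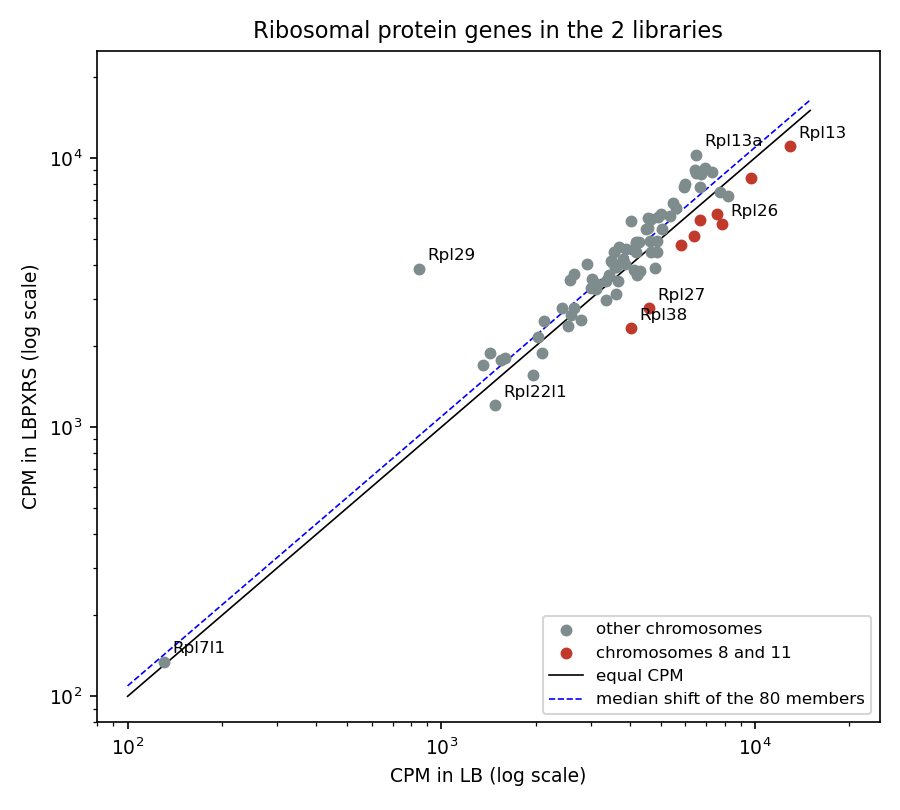
CPM of each of the 80 members in LB (x axis) and LBPXRS (y axis), both on log scales; red points lie on chromosomes 8 and 11. Most points follow the dashed line of the median shift, Rpl29 lies far above it, and Rpl38 and Rpl27 lie below.

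The small and large subunits did not shift by the same amount. The median log2 ratio was 0.22 over 32 small-subunit genes and 0.03 over 48 large-subunit genes, with 29 of 32 and 26 of 48 above 0. The small-subunit genes below 0 were Rps27a, made as a fusion to ubiquitin, at -0.28, Rps26, which lies at the mRNA exit channel, at -0.21, and Rps9 at -0.11. Leaving out chromosomes 8 and 11 narrowed the gap: the medians were then 0.23 over 31 small-subunit genes and 0.12 over 40 large-subunit genes. Against naive pluripotent-like LB cells they were 0.13 and -0.03. Within LB, naive pluripotent-like against other cells, they were 0.26 and 0.22.

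Several small-subunit genes lay above the members' median. Rpsa, also known as the laminin receptor precursor, went from 2908 to 4052 CPM, a log2 ratio of 0.48. Rps3a1 went from 2565 to 3512 CPM (0.45) and Rps23, a protein of the decoding centre, from 6482 to 8752 CPM (0.43). Rps6, the substrate of S6 kinase, went from 5005 to 6173 CPM (0.30), and Rps18 from 7295 to 8832 CPM (0.28). These 5 genes differ from the members' median by less than 0.5, so they were not called as departing. At a distance of 0.3, Rpsa, Rps3a1 and Rps23 would be.

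Rpl13, Rpl13a, Rps19 and Rps18 were among the 5 members with the highest mean CPM. Rpl13, on chromosome 8, went from 12934 to 11060 CPM. Rps19, the gene most often mutated in Diamond-Blackfan anaemia, went from 6946 to 9141 CPM, a log2 ratio of 0.40. UMIs are counted at the 3′ end of a transcript and not scaled by length, so the order of levels between genes also carries how well each 3′ end was captured.

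The stalk of the large subunit, which recruits elongation factors, is made of Rplp0, Rplp1 and Rplp2. Rplp1 went from 6006 to 7968 CPM (log2 ratio 0.41) and Rplp2 from 3877 to 4602 CPM (0.25), while Rplp0 went from 7721 to 7475 CPM (-0.05). Rpl5 and Rpl11, which bind 5S rRNA and, outside the ribosome, the p53 regulator Mdm2, lay on opposite sides of 0. Rpl5 went from 1358 to 1707 CPM (0.33) and Rpl11 from 4214 to 3661 CPM (-0.20). The p53 target list had a median of 0.19, with 6 of 10 genes above 0, where 39.6% of all genes were. Its highest were Mdm2 at 0.55, Bbc3 at 0.51 and Trp53inp1 at 0.47, and its lowest Ccng1 at -0.62, Aen at -0.46 and Cdkn1a at -0.11.

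Paralogs with restricted use were set beside their parents. Rpl22l1 went from 1487 to 1204 CPM (log2 ratio -0.30) and its parent Rpl22 from 1554 to 1778 CPM (0.19). Rps27l, a p53-responsive gene, went from 2032 to 2165 CPM (0.09), beside 0.08 for Rps27. Rpl7l1, a biogenesis factor related to Rpl7, had 131 and 135 CPM (0.04), beside 0.13 for Rpl7. Rpl3l, the striated-muscle form of Rpl3, had 0.791 and 2.59 CPM and was found in 2.02% of LB cells and 4.77% of LBPXRS cells, beside a log2 ratio of 0.08 for Rpl3. Of these pairs Rpl22l1 and Rpl22 lay on opposite sides of 0.

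Only 5 of the 80 members departed from the members' median by 0.5 or more on the log2 scale, a distance that 50.8% of all genes reached, and 46.8% of those with at least 100 CPM. Above were Rpl29 and Rpl13a, 2 of 80, where 13.8% of all genes and 11.9% of those with at least 100 CPM were. Below were Rpl38, Rpl27 and Rpl26, 3 of 80, where 37% and 34.9% were. Measured from 0 in place of the median, 3 members (Rpl29, Rpl13a and Rpl4) had a log2 ratio of 0.5 or more, against 17.2% of all genes and 14.8% of those with at least 100 CPM, and 2 (Rpl38 and Rpl27) one of -0.5 or less, against 29.4% and 26.8%. Just inside that distance were Rpl13a (0.53 from the median), Rpl26 (-0.60) and Rpl27 (-0.86). Just outside were Rpl7a (-0.47), Rpl19 (-0.45) and Rpl36 (-0.44). All 5 that departed belong to the large subunit, and 3 of them, those below, lie on chromosome 11.

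Rpl29 (ENSMUSG00000048758, chr9:106429454-106431568) departed furthest. It encodes a small basic protein of the large subunit, also described as a cell-surface heparin-binding protein, and mice without it are viable but small. Its level was 852 CPM in LB, with a counting interval of 844 to 861, and 3875 CPM in LBPXRS, with one of 3858 to 3892, giving a log2 ratio of 2.18 (2.17 to 2.20). A log2 ratio of at least 2 was found in 2.04% of all genes, in 1.22% of those with at least 100 CPM, and in 1 of the 80 members. In LB it ranked among the lowest members, and in LBPXRS it stood in the middle of them.

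The Rpl29 difference ran through every cluster and nearly every cell. Its level lay between 441 and 886 CPM in the 8 LB clusters and between 3249 and 4159 CPM in the 7 LBPXRS clusters, so the clusters of the libraries did not overlap. Naive pluripotent-like LB cells had 883 CPM, and the log2 ratio against them was 2.13. In cells thinned to 5000 UMIs the median was 4 UMIs in LB (10th to 90th percentile 2 to 7, highest 13) and 19 UMIs in LBPXRS (13 to 26, lowest 1, highest 43). At least 10 UMIs were found in 1.44% of 1733 LB cells and 97.9% of 2621 LBPXRS cells. Within LB, naive pluripotent-like cells differed from the others by 0.09 on the log2 scale.

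The genes beside Rpl29 did not share its difference. The 10 other genes within 250 kb with at least 10 CPM in either library had a median log2 ratio of -0.09, from -1.40 to 0.85. Among them were Acy1, an aminoacylase gene, at 12.5 and 19.5 CPM, and Abhd14a at 55.7 and 42.1 CPM. The other 6 members on chromosome 9 were Rpl4, Rpl14, Rplp1, Rpsa, Rps25 and Rps27l, and all 7 lay above 0, with a median of 0.41. The median of the 71 other chromosome 9 genes with at least 100 CPM was -0.03.

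Rpl29 is one of the members with many near-identical copies in the genome. The last 200 bases of its transcripts matched 54 other annotated genes over at least 150 bases at 95% identity. Of these, 1 is in the gene table, Gm3550, with 16.2 CPM in LB and 8.18 CPM in LBPXRS. Such a copy was found for 54 of the 81 members, with a median of 4 copies over the members and 59 for Rpl21, and 11 members had a copy in the gene table. Reads that match a member and a copy equally well may be counted for either or for none, and what such copies contribute to Rpl29 was not tested.

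**Figure D3:**
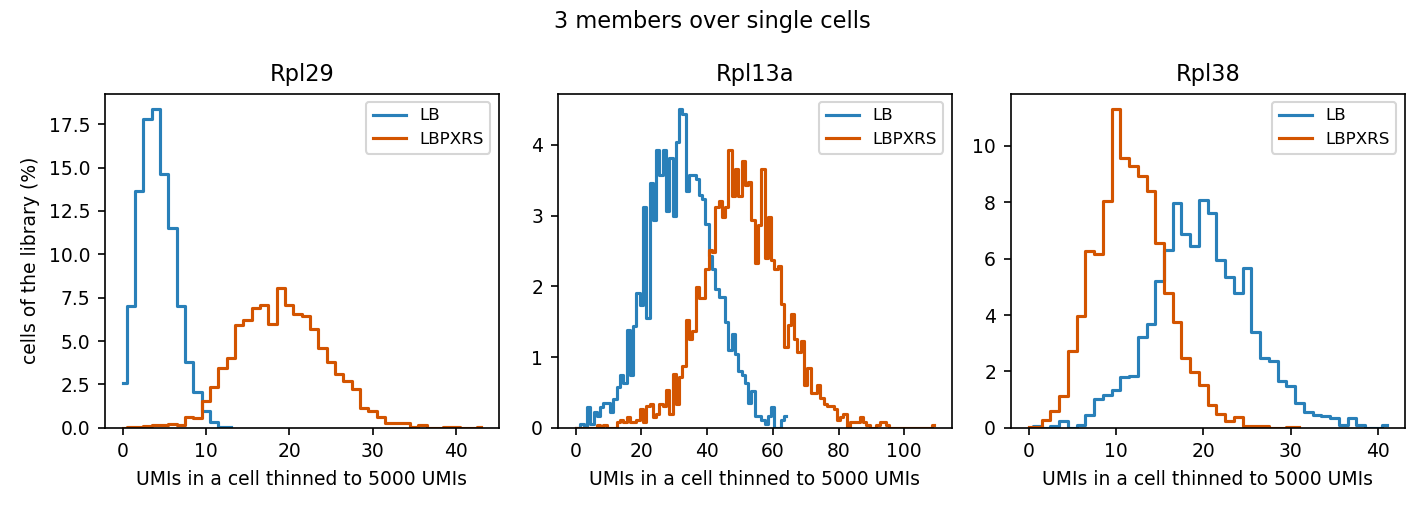
Percent of cells of a library (y axis) with each number of UMIs of Rpl29, Rpl13a and Rpl38 (x axis), after each cell was thinned to 5000 UMIs; LB is blue and LBPXRS orange. The Rpl29 distributions are nearly apart, with medians of 4 and 19 UMIs, and those of Rpl13a and Rpl38 overlap.

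Rpl13a (ENSMUSG00000074129, chr7:45125558-45128761), a large-subunit protein that can also leave the ribosome to repress translation of inflammatory mRNAs, was the other member above the rest. It had 6509 CPM in LB and 10288 CPM in LBPXRS, a log2 ratio of 0.66. In thinned cells the median was 32 UMIs in LB (10th to 90th percentile 20 to 45) and 51 in LBPXRS (36 to 66), and the ranges of cells overlapped. Its LB clusters ran from 3471 to 8042 CPM and its LBPXRS clusters from 8469 to 11263 CPM. Its level also differed within LB: naive pluripotent-like cells had 7706 CPM, a log2 difference of 0.48 from the other LB cells, the largest of any member with at least 10 CPM. Against those naive pluripotent-like cells the ratio was 0.42, and Rpl13a no longer departed from the other members by 0.5.

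Rpl38 (ENSMUSG00000057322, chr11:114668524-114672331), whose loss in the Tail short mouse alters the patterning of the axial skeleton, lay furthest below the other members. It had 4038 CPM in LB and 2335 CPM in LBPXRS, a log2 ratio of -0.79. The clusters did not overlap, at 3358 to 4346 CPM in LB and 2138 to 2448 CPM in LBPXRS. In thinned cells the median was 20 UMIs (13 to 27) in LB and 11 UMIs (7 to 17) in LBPXRS. Against naive pluripotent-like LB cells the ratio was -0.86.

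Rpl27 (ENSMUSG00000063316, chr11:101442298-101445529) had 4589 CPM in LB and 2761 CPM in LBPXRS, a log2 ratio of -0.73. Its LB clusters ran from 2644 to 5233 CPM and its LBPXRS clusters from 2639 to 2935 CPM, so they overlapped at the low end. Rpl26 (ENSMUSG00000060938, chr11:68901583-68906989), which is known to bind p53 mRNA, had 7854 CPM in LB and 5675 CPM in LBPXRS, a log2 ratio of -0.47. Its clusters overlapped too, at 5370 to 9757 CPM and 5019 to 6133 CPM. Besides Rpl29, Rpl13a and Rpl38, the cluster ranges were apart for Rps3a1, at 1915 to 3160 CPM in LB and 3185 to 3966 CPM in LBPXRS.

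All 7 members on chromosome 11 lay below 0, and so did most other genes there. They were Rpl38, Rpl27, Rpl26, Rpl19, Rpl23, Rps27a and Rpl23a, with a median log2 ratio of -0.32. The 146 other chromosome 11 genes with at least 100 CPM had a median of -0.70, and 88.4% of them were below 0. On chromosome 8, Rpl13 had a log2 ratio of -0.23, and the 99 other genes with at least 100 CPM had -0.62. The 71 members outside both chromosomes had a median of 0.19, with 55 of 71 above 0. The 1152 other genes with at least 100 CPM outside chromosomes 8, 11 and Y had a median of -0.08, and 55.7% of them were below 0.

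Within LB the members of chromosomes 8 and 11 did not stand apart. There, naive pluripotent-like cells exceeded other cells by a median of 0.21 over those 9 members and 0.25 over the other 71. With genes of chromosomes 8, 11 and Y left out of the members and of the total, 2 of 71 members departed, Rpl29 and Rpl7a. The share of all genes at this setting was not computed. A difference in chromosome content between the cultures, their media and their substrates cannot be told apart with 1 library each.

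**Figure D4:**
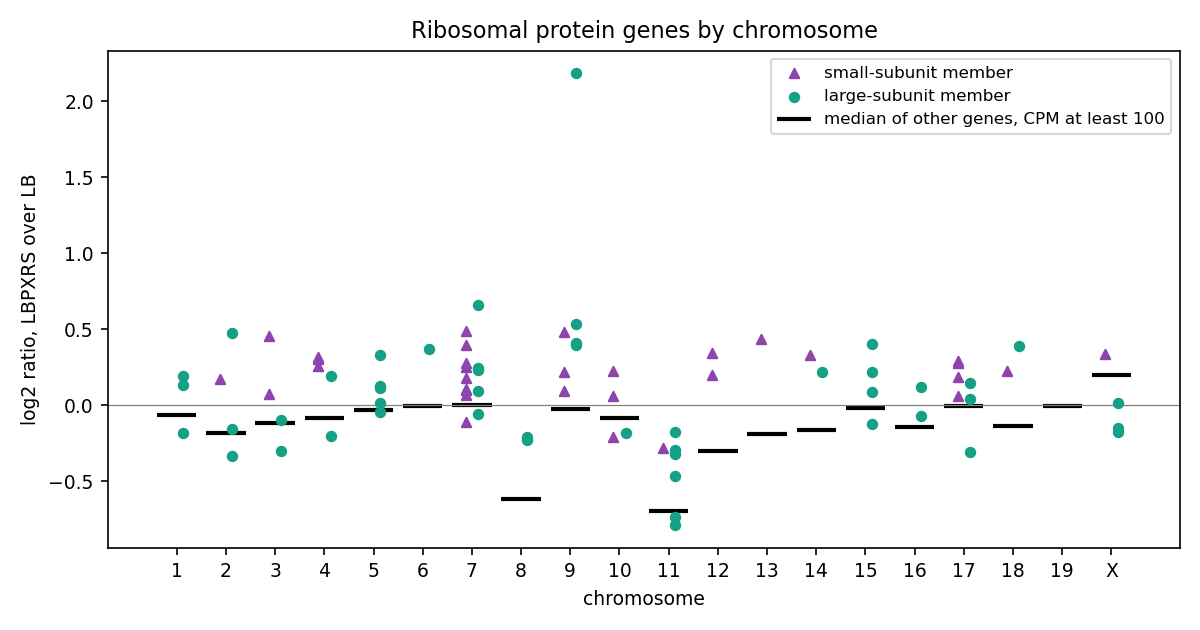
Log2 ratio of LBPXRS over LB (y axis) of each member by chromosome (x axis), with small-subunit genes as triangles and large-subunit genes as circles; black bars are the median of the other genes with at least 100 CPM on that chromosome. The bars of chromosomes 8 and 11 lie at -0.62 and -0.70, and all members there lie below 0.

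The proportions of most members varied by less than 0.5 on the log2 scale between clusters of a library. Each member was taken as a share of the ribosomal protein UMIs of a cluster and set against its share in the whole library. In LB, 16 of 80 members differed by at least 0.5 on the log2 scale in some cluster, but only 3 did without the cluster of 61 cells with a high mitochondrial share: Rpl3, Rplp1 and Rps27l. In LBPXRS 5 members did, and 1, Rpl7l1, without the cluster of 85 shallow cells. With all clusters the largest differences in LB, in absolute size, were those of Rpl5 (1.02), Rps12 (1.02), Rpl30 (0.92) and Rpl18 (0.89). At a distance of 0.3, 11 members in LB and 5 in LBPXRS remained without these clusters. The LB cluster was left out after the data were seen, and no share over all genes is set beside these counts. Rps27l had its lowest share in naive pluripotent-like cluster 2 (-0.63) and its highest in the formative or primed pluripotent-like cluster (0.43), at 1536 and 2574 CPM. Rpl3, a protein next to the peptidyl transferase centre, was highest in cluster 7, led by Dnd1 and Lefty1 (0.58), where Rplp1 was lowest (-0.52).

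Over single cells most members varied more than counting noise within the ribosomal protein total, and a few were close to it. In cells thinned to 5000 UMIs, the mean squared deviation from the expected count, divided by that count, is 1 for counting alone. Its median over the 80 members was 1.34 in LB and 1.39 in LBPXRS. Rpl29 was the lowest in LB, at 1.04, and had 1.30 in LBPXRS. Low counts bring this value nearer to 1, and Rpl29 had a median of 4 UMIs in thinned LB cells and 19 in LBPXRS. The highest in LB were Rpl41 (3.49), which encodes a very short peptide, Rpl3 (3.15) and Rplp0 (2.55), and in LBPXRS Rpl37a (3.35), Rpl41 (3.06) and Rps29 (2.88).

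Lists of genes that build or use ribosomes had medians from -0.55 to 0.09. Ribosome biogenesis factors, which process rRNA and assemble subunits, were lower on balance, at a median of -0.55 over 58 genes. Of these, 31 of 58 were at -0.5 or below and 1 at 0.5 or above, where 29.4% and 17.2% of all genes were. The lowest were Nle1 (-1.66), Nob1 (-1.35), which makes the final cut in small-subunit rRNA, and Grwd1 (-1.31). The highest were Dkc1 (0.60), the pseudouridine synthase of small nucleolar particles, Noc2l (0.49) and Mphosph10 (0.02). Of these genes, 10 lie on chromosomes 8 and 11, and without them the median was -0.44. Within LB the median difference of this list between naive pluripotent-like and other cells was near 0 (-0.000995), where that of the members was 0.24. The 7581 genes other than the members with at least 10 CPM had -0.24, so this list also lay above the typical gene there.

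RNA polymerase I and III genes, which make rRNA and small RNAs, had a median of -0.43. Of these, 10 of 22 were at -0.5 or below and 1 at 0.5 or above, where 29.4% and 17.2% of all genes were. Brf2 (-0.87), Polr1e (-0.81) and Cd3eap (-0.79) were lowest, and Znrd1 (0.57), Polr3d (0.29) and Ubtf (0.08) highest. Initiation factors had a median of -0.36, with 12 of 37 at -0.5 or below and 2 at 0.5 or above. Their share at -0.5 or below was thus near the 29.4% of all genes. The lowest were the helicase gene Eif4a1 (-1.11), Eif3b (-0.90) and the scaffold gene Eif4g1 (-0.87), and the highest Eif3j1 (1.13), Eif2s2 (0.89) and Eif1b (0.50). Elongation factors, whose mRNAs often carry the same pyrimidine start as the members, had a median of 0.09 over 9 genes. Eef2k (1.23), the kinase that inhibits Eef2, Eef1b2 (0.28) and Tpt1 (0.24) were highest, and Eif5a (-0.83), Eef1d (-0.52) and Eef1e1 (-0.10) lowest.

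Mitochondrial ribosomal proteins, which serve the separate ribosome of mitochondria, had a median of -0.22, with 23 of 78 at -0.5 or below and 1 at 0.5 or above, beside 29.4% and 17.2% of all genes, so the share at -0.5 or below was near the background. Without chromosomes 8 and 11 it was -0.13. Mrps31 (-1.27), Mrpl12 (-1.15) and Mrpl3 (-1.12) were lowest, and Mrps24 (0.88), Mrpl35 (0.42) and Mrps15 (0.37) highest. Ribosome-linked genes whose names fall outside the rule had a median of -0.29 over 7 genes, and of -0.05 without the 2 on chromosomes 8 and 11. The scaffold gene Rack1, on chromosome 11, was at -0.34 and Naca, of the nascent chain complex, at -0.30. Rps27rt (0.33), Btf3 (0.04) and Fau (-0.05), which encodes eS30, were highest.

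Regulators of ribosome supply had a median of -0.17 over 22 genes, with 6 at -0.5 or below and 2 at 0.5 or above. Of all genes 29.4% and 17.2% were, so the share at -0.5 or below was near the background. Myc, which drives ribosome production, had 13.2 CPM in LB and 0.154 CPM in LBPXRS (-3.62). Larp1, on chromosome 11, had 141 and 41.2 CPM (-1.75), and Rptor, of the mTOR complex and also on chromosome 11, was at -0.85. Tsc1 (0.70), Rps6ka1 (0.54) and Rps6kb2 (0.50) were highest. Ribosome quality control genes had a median of -0.43, with 4 of 10 at -0.5 or below and 0 at 0.5 or above, beside the same background. Of these 10 genes, 4 lie on chromosomes 8 and 11, and the median of the others was -0.26. Usp10 on chromosome 8 (-0.86), G3bp1 on chromosome 11 (-0.78) and Hbs1l (-0.57) were lowest, and Gcn1 (0.12), Zfp598 (0.07) and Asna1 (-0.06) highest.

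The integrated stress response list, which Atf4 drives when initiation is limited, had a median of 1.32. All 8 of 8 genes were above 0, where 39.6% of all genes were. Nupr1 (3.75), Ddit3 (3.07) and Trib3 (1.97) were highest, and Sesn2 (0.17), Psat1 (0.32) and Atf4 (0.80) lowest. The part of these lists in the levels of the members was not tested.

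**Figure D5:**
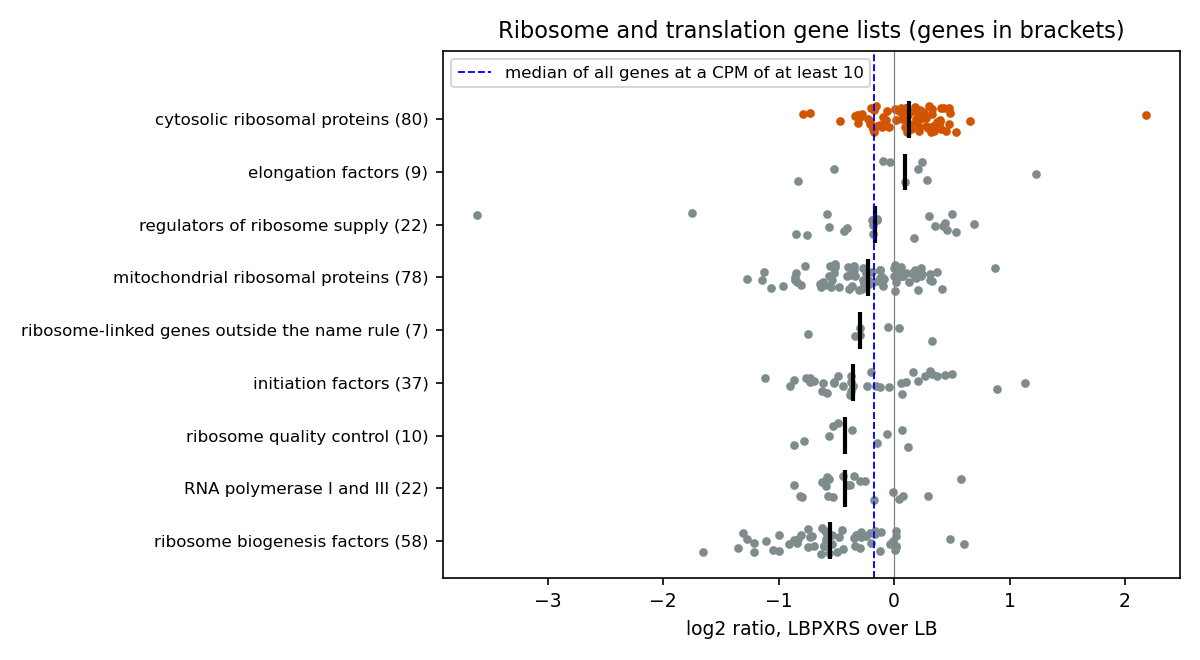
Log2 ratio of LBPXRS over LB (x axis) for each gene of the ribosome and translation lists (rows; the number of genes in brackets), with a black bar at the list's median and a dashed line at the all-gene median of -0.17. Of the 9 lists drawn, which leave out the p53 target and integrated stress response lists, the cytosolic ribosomal proteins have the highest median, 0.13, and the biogenesis factors the lowest, -0.55.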

How the data were processed

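The deposited matrices hold UMI counts per gene and barcode, made by the authors with Cell Ranger 4.0.0 on mm10, per the submitters' processing notes. The libraries used 10x 3′ version 2 chemistry, per the labels' protocols. The annotation release is not given in the sources used here. All 32285 identifiers were found in GENCODE M21 (GRCm38), which gave chromosomes and gene coordinates.

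Barcodes with fewer than 1000 genes or over 10% mitochondrial UMIs were left out: 225 of 2008 in LB and 406 of 3111 in LBPXRS. Scrublet (scanpy 1.11.5) marked 12 LB and 14 LBPXRS cells as doublets, which were kept. UMIs were summed per library (45490517 and 51832444) and scaled to CPM, and log2 ratios used a pseudocount of 1 CPM, which understates the change of low genes. Counting intervals are exact, at 95% (Poisson for counts, Clopper-Pearson for shares). Each library was clustered without the members (2000 variable genes, 30 principal components, 15 neighbours, Leiden resolution 0.5). A cluster was named from at least 3 raised markers (a CPM of at least 5, a log2 ratio of at least 1). A further limit, set after the clusters were seen, required 1 in 3 of the class's markers. It kept 61 LB cells (3.42%) out of the naive pluripotent-like class, and 2 LBPXRS clusters without a name. For UMIs per cell, cells were thinned to 5000 UMIs, which left out 50 LB and 84 LBPXRS cells. TMM factors came from edgeR 4.0.16, used for scaling only.

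With 1 sample per condition no test was run. A member departed where its log2 ratio lay at least 0.5 from the members' median. On simulated counts for this comparison over 7062 genes, with counting noise only, that rule called 25 of 25 genes at each of 0.75, 1 and 2 in either direction, 0 of 25 at 0.25 in either direction, and 0 of 6862 unchanged genes. Named genes were those that departed, the 3 just inside and just outside, the 5 members highest in CPM, the paralogs and their parents, the 5S particle genes, and the 3 highest and 3 lowest of each list. The other small-subunit genes, the stalk genes, the chromosome 8, 9 and 11 members, the members set apart by cluster or over cells, and the neighbours of Rpl29 were chosen after their values were seen. Results for some genes that this rule names are not reported here. Members and lists were chosen with earlier results of these data known. Of the listed genes, Znf598 and Zak were not found under these symbols, and their other names Zfp598 and Map3k20 were used. Alternatives changed 1 choice at a time: cells, scaling, pseudocount, minimum, threshold and clusters.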

Additional observations from a re-analysis of the deposited data

Results flagged for a closer look

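Some ribosomal protein-like genes were outside the name rule but had UMIs in LBPXRS above the level in LB, the condition without the added compounds. Rpl39l, the testis form of Rpl39, had 17.7 CPM in LB (95% counting interval 16.5 to 18.9) and 92.2 CPM in LBPXRS (89.6 to 94.9), 5.22 times as much; naive pluripotent-like LB cells had 36.9 CPM. Rpl10l, the testis form of Rpl10, had 7.89 CPM (7.10 to 8.75) and 22.3 CPM (21.1 to 23.7), with 15.8 CPM in naive pluripotent-like LB cells. Rpl9-ps6, a near-identical copy of Rpl9, had 32.1 CPM (30.4 to 33.8) and 38.9 CPM (37.3 to 40.7), a ratio of 1.21 beside the 1.09 of Rpl9. Rpl10l, Rpl39l and the names holding -ps, 7 genes in all, summed to 4562 UMIs in LB and 10158 in LBPXRS. Rpl39l alone gave 804 and 4781 of these. Rpl36al and Rps27rt, whose names also fall outside the rule, are not in this sum.

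The barcodes left out by the filters also carried ribosomal protein UMIs. Their share was 23.5% in LBPXRS (23.4 to 23.6) and 17.4% in LB (17.4 to 17.5), at median depths of 1043 and 1801 UMIs, both below the share in the cells kept.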

How the results depend on the processing

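All limits follow from 1 library per condition: depth leaves little counting error, and differences between cultures were not measured. The difference in ribosomal protein share was 2.90 points, and the use of only naive pluripotent-like LB cells reversed it to -0.14 points for summed UMIs and to -0.17 points for the median per cell (2.60 as reported). Both values leave out the 61 LB cells kept from that class by the limit set after the clusters were seen. Neither was computed with those cells, so both signs may rest on that limit. The difference for summed UMIs was 2.98 with all barcodes, 2.81 without cells under 0.5% mitochondrial UMIs and 3.11 in thinned cells. As a mean of cells it was 3.14, and without chromosomes 8, 11 and Y 2.95. It was 2.73 without the LB cluster of high mitochondrial share, an alternative chosen after seeing the data. Member UMIs divided by those of nuclear genes other than the members differed by 7.26 points. That ratio has a smaller denominator than the share, so its size cannot be set against 2.90.

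The members' median log2 ratio (0.13) was 0.011 against naive pluripotent-like LB cells, 0.15 in thinned cells, 0.28 with TMM scaling, 0.19 over the total of nuclear genes other than the members, 0.10 without chromosomes 8, 11 and Y, and 0.15 without paralogs. Chosen after seeing the data, it was 0.21 against mesoderm-like LB cells and 0.19 outside chromosomes 8 and 11. The count of members that departed (5) was 2 without chromosomes 8, 11 and Y, 25 at a distance of 0.3, 1 at 1.0, and 9 against mesoderm-like LB cells. The share of all genes was not computed for these alternatives, so their counts cannot be called few or many. The Rpl29 log2 ratio ran from 2.10 to 2.34 over its alternatives, that of Rpl13a from 0.42 to 0.90, Rpl38 from -0.86 to -0.64, Rpl27 from -0.81 to -0.58 and Rpl26 from -0.63 to -0.31.

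The range of the share over clusters was 16.2 points in LB, 26.1 at Leiden resolution 1 and 17.1 with the members kept in the clustering. In LBPXRS it was 7.69, 16.4 and 15.5 points. With TMM scaling the list medians were -0.26 (RNA polymerase I and III), 0.25 (elongation), -0.21 (initiation), 1.47 (integrated stress response), 0.34 (p53 targets), -0.019 (regulators), -0.40 (biogenesis), -0.22 (quality control), -0.14 (outside the name rule) and -0.072 (mitochondrial ribosomal proteins). Against naive pluripotent-like LB cells they were 0.063 (elongation), -0.24 (initiation), 1.20 (integrated stress response), -0.47 (biogenesis), -0.28 (quality control), -0.32 (outside the name rule) and -0.14 (mitochondrial ribosomal proteins). The cause of these shifts was not tested. No paired analysis was possible because each condition has 1 library.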
